A study of Drosophila melanogaster with 21 samples.

Results

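The genes klu, Muc14A, Msp300, Cand1 and Sf3b1 are 5 of the 17555 genes measured in each of the 2 deposited expression tables. They were chosen because their mRNA was lower after depletion of the RNA-binding protein Pumilio by RNA interference (RNAi), and all 5 belong to the 19 genes that the authors call lower there. Each was then followed through 7 groups of 3 samples of DL1, a Drosophila melanogaster cell line of the blood cell (hemocyte) lineage. Because the Pum RNAi values chose the genes, those values are a description and carry no test here. The tests concern the pum knockout clones and the Not1 and Pop2 knockdowns. The clones share no samples with Pum RNAi, and the Not1 and Pop2 knockdowns share only their control samples with it. The 5 genes were chosen with earlier results of these data known, so the clones are not a fully independent test.

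The knockdown experiment had 12 samples of DL1 cells of wild-type genotype. The cells took up 20 µg of double-stranded RNA (dsRNA) from the medium during 60 min of bathing and were collected 48 h later. The dsRNA matched pum (Pum RNAi), Not1 (Not1 RNAi), Pop2 (Pop2 RNAi) or the bacterial gene LacZ (LacZ RNAi, the non-targeting control that every knockdown was compared with). The knockout experiment had 9 samples, namely the parental line (WT) and 2 clonal isolates with a Pumilio knockout (Pum KO clone 1 and clone 2). Each clone is 1 isolate, so the spread between its 3 samples holds no difference between isolates, and which stretch of pum was altered is not stated in the labels. The labels call the 3 samples of a group biological replicates without saying how the cultures were separated, so every p-value measures the spread between these samples only. RNA was poly(A)-selected and sequenced by ClickSeq, a method that needs no fragmentation because azido-nucleotides end the cDNA at random places, where click chemistry then attaches an adapter.

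Pumilio binds short elements in the 3′ untranslated regions (UTRs) of mRNAs and, in flies, lowers their translation and stability. It does so in part by recruiting CCR4-NOT, which removes poly(A) tails. The other subunits of CCR4-NOT assemble on Not1, and Pop2 is one of its tail-removing enzymes. Direct targets of this repression are known to gain mRNA when Pumilio is lost. The 5 genes here were chosen for less mRNA in Pum RNAi, and whether Pumilio binds their mRNAs was not tested.

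The 5 proteins act in different places in the cell. The gene klu (klumpfuss) encodes a zinc finger transcription factor of the EGR/WT1 type that acts in neural progenitor and blood cell development, and Muc14A encodes a mucin, a large secreted or surface glycoprotein. Msp300 encodes the fly nesprin, a giant protein that ties the nuclear envelope to the cytoskeleton. Cand1 encodes an exchange factor of cullin ubiquitin ligases, which lets them swap their substrate receptors. Sf3b1 encodes the largest subunit of SF3b, the part of the U2 snRNP that holds the branch point during splicing.

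The genes lie apart in the dm6 genome. The klu gene (FBgn0013469) is on the minus strand of chromosome 3L from 10981171 to 11009188, with 4 annotated transcripts whose 3′ UTRs are 707 to 1319 bases long. Muc14A (FBgn0052580) is on the plus strand of X from 16009114 to 16061722, with 1 transcript of 14 exons. Msp300 (FBgn0261836) is on the plus strand of 2L from 5100877 to 5207002, with 11 transcripts and 41 distinct exons. Cand1 (FBgn0027568) is on the minus strand of 2L from 10358134 to 10362707, and Sf3b1 (FBgn0031266) is on the plus strand of 2L from 568340 to 572907. Of the 5, Msp300 alone overlaps other annotated genes: 5 small RNA and transposon-derived genes on its own strand, 3 of which touch its exons, so their reads can be shared.

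The tables give group means, and the reads of each library could be recovered from the digits of those means. Libraries are lettered A to C from the deepest to the shallowest in each group, because the tables do not tie them to replicate numbers. Between 1543745 and 9385393 reads per library were recovered, from genes that hold 63.1% to 77.6% of the normalized counts of their group. The shallowest libraries of LacZ RNAi and of Not1 RNAi stood apart, with correlations across genes of 0.898 to 0.899 and 0.925 to 0.926 with the other libraries of their groups, against 0.985 and 0.994 between those others. The pum mRNA was at 31% of its control in Pum RNAi, 34% in clone 1 and 70% in clone 2 by the group means of the authors' deposited table. By the same measure Not1 was at 10.4% in Not1 RNAi and Pop2 at 4.99% in Pop2 RNAi. Of the hemocyte markers, srp, the GATA factor of blood cells, stood at a mean of 4358 normalized counts in LacZ RNAi, and eater, a phagocytic receptor, at 799. The mature plasmatocyte gene NimC1 was near 0 (6.02), and Hml was at 30.4 in LacZ RNAi but 760.7 in WT, values set in separately normalized tables.

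The 5 genes spanned a wide range of level in control cells. Divided by gene length, the authors' deposited table gave mean levels in LacZ RNAi of 223 normalized counts per kb for Cand1, 219 for Msp300, 160 for Sf3b1, 65.8 for Muc14A and 24.0 for klu. In WT the order of the levels per kb was Msp300 (279), Cand1 (243), Sf3b1 (172), Muc14A (44.9) and klu (15.9). Cand1 and Msp300 changed places between the 2 tables, and the Msp300 libraries of LacZ RNAi alone ranged 1.75-fold.

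**Figure D1:**
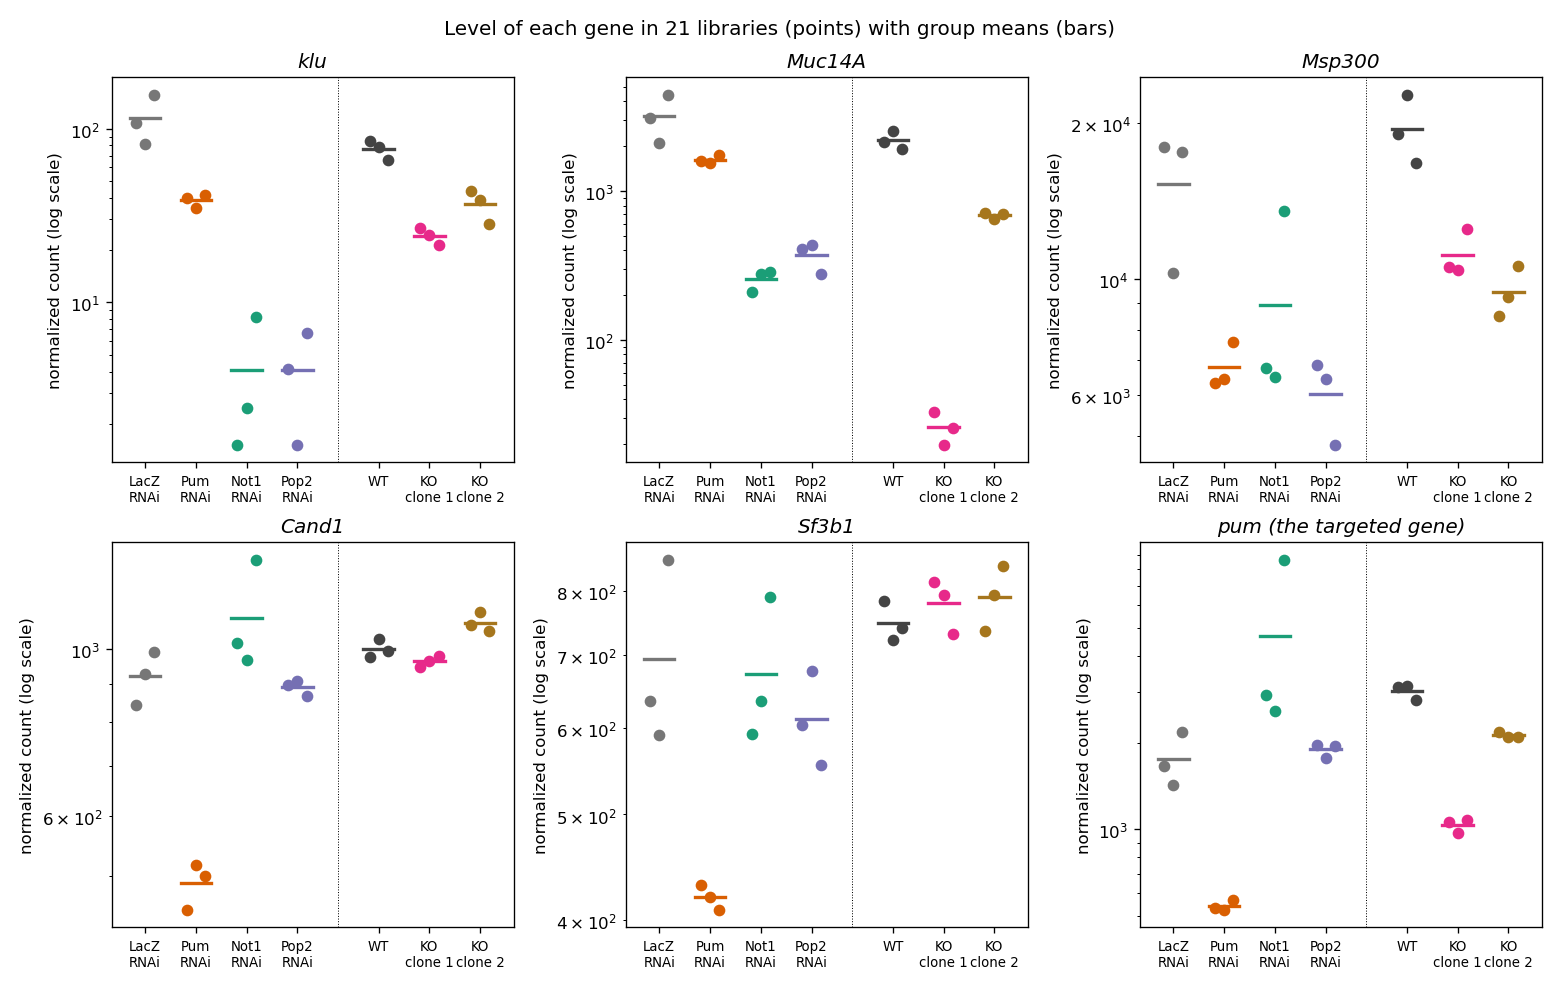
Normalized counts (log scale, a separate scale per gene) of the 5 genes and of pum in the 21 libraries, by group; points are libraries and bars are group means, and the dotted line separates the 2 tables, which were normalized separately. The 3 Pum RNAi libraries lie below the 3 LacZ RNAi libraries for all 5 genes, while in the knockout clones klu, Muc14A and Msp300 lie below WT and Cand1 and Sf3b1 do not.

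The values that chose the genes come first. In Pum RNAi the authors call 19 of 8596 tested genes lower, or 0.221%, and 0.512% higher, and the 5 are among the lower ones by choice. All 3 Pum RNAi libraries lay below all 3 LacZ RNAi libraries for each of the 5 genes, which 10.8% of 6600 genes did whose mean over both groups was 20 normalized counts or more. The lowering in the authors' deposited table was 2.94-fold for klu, 2.25-fold for Msp300, 1.97-fold for Muc14A, 1.87-fold for Cand1 and 1.64-fold for Sf3b1. By limma on the recovered reads of all libraries, the log2 values were -1.50 for klu, -1.13 for Msp300, -0.91 for Muc14A and for Cand1 and -0.70 for Sf3b1, and none of the 5 passed (adjusted p = 0.0573 to 0.531). Just inside the authors' threshold of adjusted p 0.05 were Pcyt1 (adjusted p = 0.0340), zip (0.0472) and Muc14A itself (0.0476). Just outside were yellow-f (0.0505), IleRS (0.0539) and RpI1 (0.0662), all by the authors' deposited table. In bulk RNA, fewer cells that express a gene and less of its RNA per cell cannot be told apart.

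For klu, the 3 LacZ RNAi libraries held 108.4, 81.0 and 156.2 normalized counts, and the 3 Pum RNAi libraries 39.9, 34.9 and 41.3. Not1 RNAi libraries held 1.52, 2.49 and 8.24 and Pop2 RNAi libraries 4.15, 1.52 and 6.64. These groups do not overlap with LacZ RNAi or with Pum RNAi, and the mRNA was near the limit of detection: 7 reads in all for Not1 RNAi and 15 for Pop2 RNAi, against 256 in LacZ RNAi. In the knockout table, WT libraries held 85.0, 77.9 and 66.4, clone 1 libraries 26.7, 24.3 and 21.3, and clone 2 libraries 43.7, 38.9 and 28.1. The order of the groups was thus the same in every library: each WT value lay above each clone 2 value, and each clone 2 value above each clone 1 value, though the last gap was 1.49 normalized counts. Here and for the genes below, the share of all genes without overlap was counted only for treated groups below their control. For other pairs of groups it was not counted, so how common such a gap is cannot be told.

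For Muc14A, LacZ RNAi libraries held 3075, 2113 and 4428 normalized counts and Pum RNAi libraries 1593, 1547 and 1742. Not1 RNAi libraries held 209, 278 and 288, and Pop2 RNAi libraries 409, 434 and 279. Both CCR4-NOT knockdowns lay below every Pum RNAi library and overlapped each other. WT libraries held 2135, 2523 and 1906, clone 2 libraries 718, 653 and 697, and clone 1 libraries 32.7, 19.8 and 25.6. Clone 1 had 99 reads of Muc14A over its 3 libraries, and clone 2 lay between WT and clone 1 without overlap with either.

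For Msp300, the longest and in total reads the most abundant of the 5, LacZ RNAi libraries held 17958, 10269.5 and 17579 normalized counts and Pum RNAi libraries 6323, 6442 and 7567. Not1 RNAi libraries held 6764, 6504 and 13500, and Pop2 RNAi libraries 6840, 6434 and 4809. The shallowest Not1 RNAi library lay within the LacZ RNAi range and the other 2 lay below it. WT libraries held 19006, 22598 and 16739, clone 1 libraries 10573, 10429 and 12475, and clone 2 libraries 8494, 9249 and 10613. Both clones lay below WT and overlapped each other.

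For Cand1, LacZ RNAi libraries held 842, 926 and 991 normalized counts and Pum RNAi libraries 451, 518 and 501. Not1 RNAi libraries held 1019, 966 and 1314 and Pop2 RNAi libraries 896, 906 and 867, so Pum RNAi lay below all 9 other libraries of its table. This describes the values that chose the gene, and the share of all genes that did so was not counted. WT libraries held 978, 1031 and 994, clone 1 libraries 948, 965 and 981, and clone 2 libraries 1075, 1121 and 1057. Clone 2 lay above WT without overlap, by 26.3 normalized counts at the nearest libraries, though the authors do not call the difference.

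For Sf3b1, LacZ RNAi libraries held 634, 591 and 855 normalized counts and Pum RNAi libraries 431, 421 and 409. Not1 RNAi libraries held 592, 635 and 791, and Pop2 RNAi libraries 603, 676 and 554. Here too Pum RNAi, whose values chose the gene, lay below all 9 other libraries of its table, and the other 3 groups overlapped. The share of all genes that did so was again not counted. WT libraries held 784, 722 and 741, clone 1 libraries 815, 795 and 732, and clone 2 libraries 736, 794 and 844, with all 3 groups overlapping.

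The knockout clones share no samples with Pum RNAi, though the 5 genes were chosen with earlier results of these data known. In clone 1, klu, Muc14A and Msp300 fell, or 3 of the 5 genes, where the authors call 25.5% of 10156 tested genes lower. In clone 2 the same 3 genes fell, where 23.5% of 9925 were called lower. Cand1 and Sf3b1 passed the test in neither clone. All 3 genes that fell did so without overlap between clone and WT libraries, as did 33.3% of 6952 genes for clone 1 and 33.7% of 6996 for clone 2.

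The klu mRNA fell 3.16-fold in clone 1 (log2 -1.66 ± 0.27, standard error, SE; adjusted p = 5.41e-09, DESeq2) by the authors' deposited table. In clone 2 klu fell 2.07-fold (log2 -1.05 ± 0.26, adjusted p = 0.000259, DESeq2) by the authors' deposited table. Muc14A fell 83.3-fold in clone 1 (log2 -6.38 ± 0.18, adjusted p = 4.23e-285, DESeq2), again in the authors' deposited table. Of 7163 genes with a mean of at least 20 in WT, 35 had a more negative value. In clone 2 the authors' deposited table gave Muc14A a fall of 3.18-fold (log2 -1.67 ± 0.10, adjusted p = 1.81e-56, DESeq2). For Msp300 the authors' deposited table gave falls of 1.74-fold in clone 1 and 2.06-fold in clone 2 (log2 -0.80 ± 0.10 and -1.04 ± 0.10; adjusted p = 6.31e-14 and 1.26e-22, DESeq2). Each of these 6 falls also passed limma's test on the recovered reads with any 1 library left out.

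Cand1 and Sf3b1 had small values in both clones, with intervals that include 0. The log2 value of Cand1 in the authors' deposited table was -0.05 ± 0.07 in clone 1, with a 95% interval of -0.20 to 0.09, and 0.12 ± 0.07 in clone 2, with -0.03 to 0.26. The log2 value of Sf3b1 in the authors' deposited table was 0.06 ± 0.09 in clone 1 (95% interval -0.11 to 0.23) and 0.08 ± 0.09 in clone 2 (-0.09 to 0.25). The knockdown and the knockout were normalized in separate tables against different controls, and the difference between them was not tested.

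**Figure D2:**
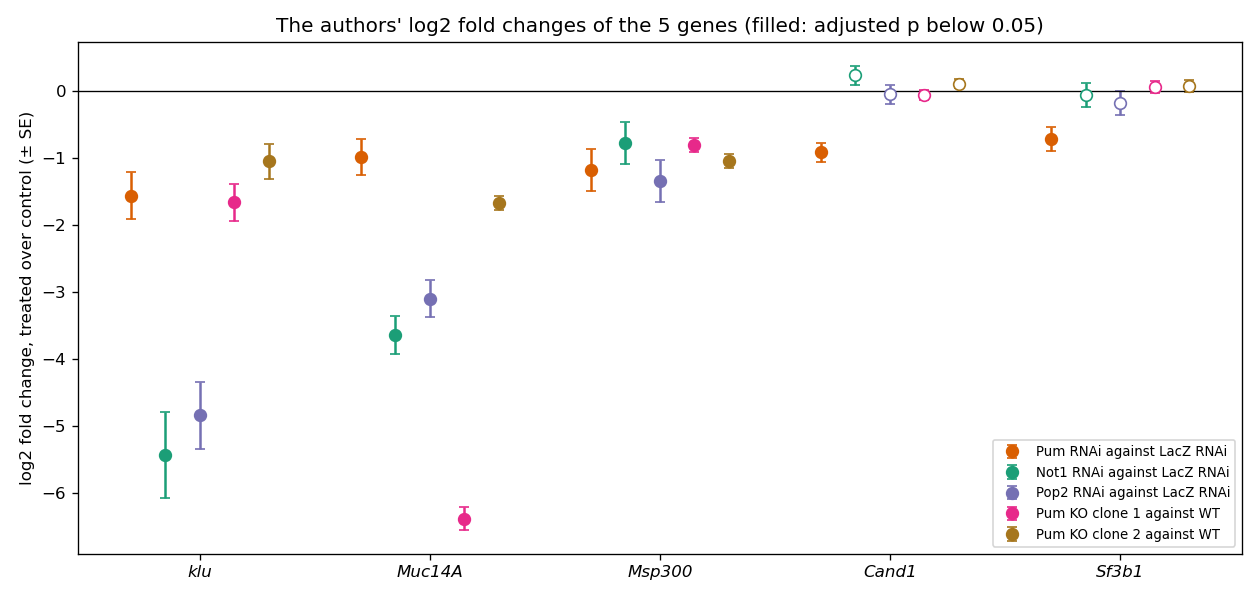
The authors' log2 fold changes (vertical axis, treated over control, with 1 SE) of the 5 genes in the 5 comparisons; filled points have an adjusted p below 0.05 and open points do not. The 3 genes on the left have filled points below 0 in all 5 comparisons, down to -6.38 for Muc14A in clone 1, whereas Cand1 and Sf3b1 have a filled point in Pum RNAi only.

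The 2 clones differed in 1 of the 5 genes. Muc14A was 26.2-fold lower in clone 1 than in clone 2 relative to WT (difference of the log2 fold changes, clone 1 minus clone 2, -4.71 ± 0.20, adjusted p = 5.14e-114). Over all genes, 7.36% of 9925 passed this test of the difference, which takes the authors' values and SEs as independent although both clones share the WT samples, and so overstates the error. The pum mRNA itself was also lower in clone 1 (-1.04 ± 0.10, adjusted p = 5.55e-23 by the same test). For klu the difference was -0.61 ± 0.38, with a 95% interval of -1.35 to 0.13, and for Msp300 it was 0.24 ± 0.15 (-0.05 to 0.53). Neither passed after adjustment (0.514 and 0.502 by the same test). By limma on the recovered reads klu passed too, at -0.58 (adjusted p = 0.0414).

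Not1 and Pop2 knockdown asked what happens to these mRNAs when CCR4-NOT is depleted rather than Pumilio. The pum mRNA itself rose in Not1 RNAi (log2 1.42 ± 0.39, adjusted p = 0.000771, DESeq2) by the authors' deposited table. Its libraries there held 2927, 2570 and 8624 normalized counts, the shallowest being the highest. In Pop2 RNAi pum was at 0.11 ± 0.39. The Pop2 mRNA was at 0.57 ± 0.08 in clone 1 and 0.66 ± 0.08 in clone 2. The part of these changes in the results was not tested. The Not1, Pop2 and Pum knockdowns were all compared with the same LacZ RNAi samples, so their values are given side by side and their likeness is not counted as a result. In Not1 RNAi klu, Muc14A and Msp300 fell, 3 of the 5, where 24.2% of 9051 tested genes were called lower, and the same 3 fell in Pop2 RNAi, where 20.1% of 9051 were. The libraries did not overlap with LacZ RNAi for klu and Muc14A in Not1 RNAi and for all 3 in Pop2 RNAi, as for 26.7% of 6621 and 27% of 6586 genes. The klu mRNA had a log2 value of -5.44 ± 0.64 in Not1 RNAi and -4.84 ± 0.50 in Pop2 RNAi (adjusted p = 5.85e-16 and 3.92e-20, DESeq2), by the authors' deposited table. Of 6692 genes with a mean of at least 20 in LacZ RNAi, 2 had a more negative value than klu in Not1 RNAi and 1 in Pop2 RNAi. From the summed reads over the summed size factors, LacZ RNAi held 42.4 times as much klu mRNA as Not1 RNAi (exact 95% interval 20.3 to 106.5) and 27.3 times as much as Pop2 RNAi (16.2 to 49.5), counting error only. With 1 library left out, limma gave klu log2 values from -5.24 to -4.30 in Not1 RNAi and from -4.96 to -4.16 in Pop2 RNAi, and klu passed in all 12 fits of each.

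Muc14A fell 12.5-fold in Not1 RNAi and 8.56-fold in Pop2 RNAi (log2 -3.64 ± 0.28 and -3.10 ± 0.27; adjusted p = 1.57e-36 and 2.41e-27, DESeq2), by the authors' deposited table. Among the knockdowns, Muc14A like klu had more negative values in Not1 RNAi and Pop2 RNAi than in Pum RNAi (-0.98 for Muc14A). That Pum RNAi value chose the gene, the targets were not depleted to the same degree, and the difference was not tested. The Muc14A value in clone 1, -6.38, was more negative than in any knockdown. Msp300 fell 1.71-fold in Not1 RNAi (log2 -0.78 ± 0.31, adjusted p = 0.0287) and 2.53-fold in Pop2 RNAi (-1.34 ± 0.31, adjusted p = 0.000121, DESeq2), by the authors' deposited table. The Msp300 call in Not1 RNAi was the weakest of these: limma kept it in 3 of 12 fits that left out 1 library, with log2 values from -1.16 to -0.63. With library C of LacZ RNAi and of Not1 RNAi left out it was -1.03 (adjusted p = 0.000109, limma).

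Cand1 and Sf3b1 were not called in either CCR4-NOT knockdown. The authors' deposited table gave Cand1 a log2 value of 0.24 ± 0.14 in Not1 RNAi (95% interval -0.04 to 0.52) and -0.04 ± 0.14 in Pop2 RNAi (-0.32 to 0.23). The value of Sf3b1 in the authors' deposited table was -0.05 ± 0.18 in Not1 RNAi (-0.40 to 0.30) and -0.17 ± 0.18 in Pop2 RNAi (-0.52 to 0.17). None of the 5 genes passed the test of the difference between Not1 RNAi and Pop2 RNAi, with adjusted p from 0.718 to 0.961 over 9051 genes, of which 1.27% passed. The intervals of that difference were wide, -2.19 to 1.00 (log2, Not1 minus Pop2) for klu and -1.31 to 0.22 for Muc14A. With library C of LacZ RNAi and of Not1 RNAi left out, Muc14A was lower in Not1 RNAi than in Pop2 RNAi by limma (-0.60, adjusted p = 0.0119).

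**Figure D3:**
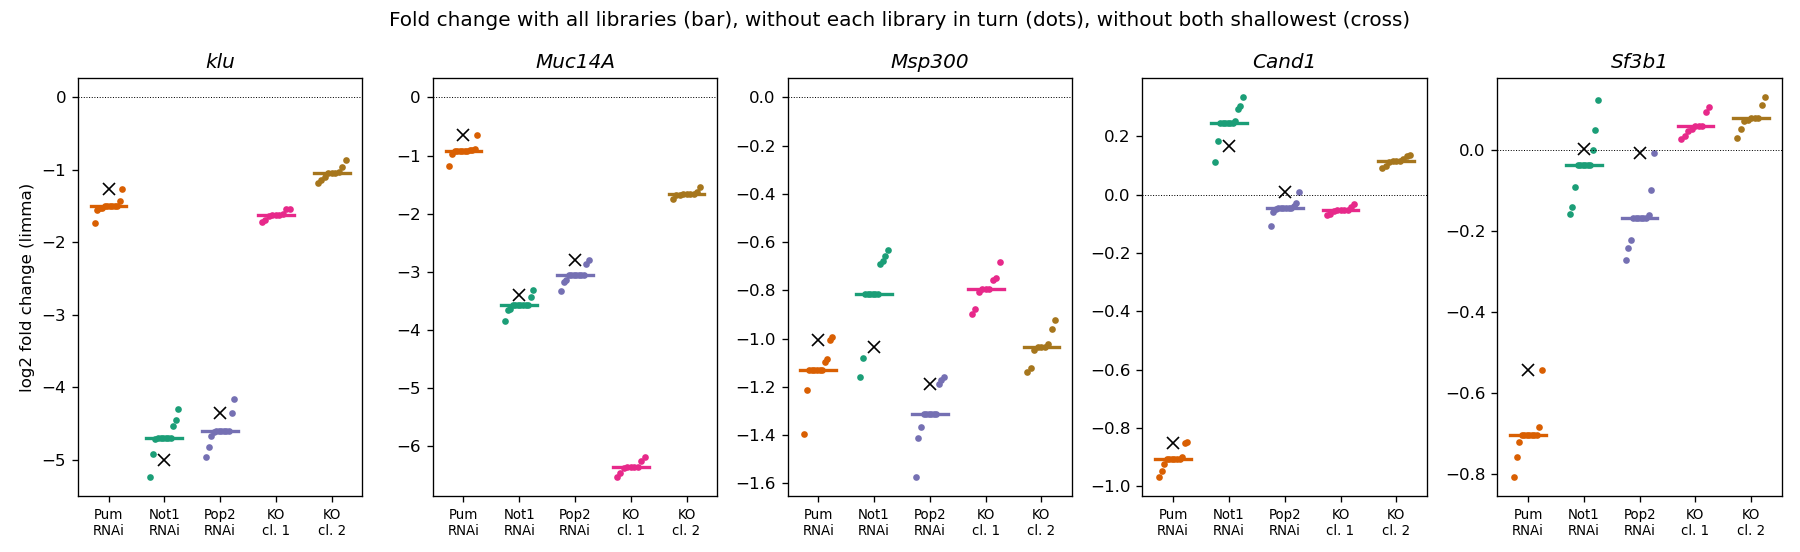
Log2 fold changes by limma on the recovered reads (vertical axis, a separate scale per gene) in the 5 comparisons: bars use all libraries, dots leave out each library of the table in turn, and crosses leave out library C of LacZ RNAi and of Not1 RNAi together. The values of klu, Muc14A and Msp300 stay below 0 in all fits, while those of Sf3b1 in Not1 RNAi run from -0.16 to 0.12 and those of Cand1 in Pop2 RNAi from -0.11 to 0.01.

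Each gene was set beside other genes of its pathway. For Sf3b1 these were 20 further genes of SF3b, SF3a and the U2 snRNP, the complex that recognises the branch point. In Pum RNAi none of the 20 passed in either direction, with a median log2 of -0.37 (-0.02 over all genes tested) and 17 of 20 below 0. In Not1 RNAi 9 of 20 fell, where 24.2% of all tested genes did, and none rose. Among the 9 were Spx, an SF3b subunit (log2 -1.04 ± 0.19), noi, an SF3a subunit (-1.43 ± 0.27), and Sf3a1 (-1.24 ± 0.23), in the authors' deposited table. In Pop2 RNAi 7 fell, beside 20.1% of all tested genes, with Sf3a1 at -0.94 ± 0.23 and the Sm core genes SmB at -1.30 ± 0.34 and SmD1 at -0.90 ± 0.27, in the authors' deposited table. In the clones they went the other way: 18 of 20 rose in clone 1 and 17 in clone 2, with medians of 0.59 and 0.60, where 22.9% and 21.3% of all tested genes rose. By the authors' deposited table SmE and SmD3, also of the Sm core, rose 2.81-fold and 2.03-fold in clone 1 and 2.71-fold and 1.94-fold in clone 2. Sf3b1 itself, at 0.06 and 0.08, was not among the genes that rose.

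For Cand1 the list was 25 tested genes of cullin ligases and their regulators. None passed in Pum RNAi (median log2 -0.00, lowest value -0.34). In Not1 RNAi 9 of 25 rose and 2 fell, where 25.7% and 24.2% of all tested genes did, with the cullin gene Cul3 at 1.34 ± 0.11 and the F-box gene slmb at 1.71 ± 0.19, in the authors' deposited table. In Pop2 RNAi 7 rose and 2 fell, beside 18.8% and 20.1%, with Cul1 at 0.93 ± 0.11 and slmb at 0.93 ± 0.19 in the authors' deposited table. In clone 1, 13 rose and 4 fell, beside 22.9% and 25.5% of all tested genes, and in clone 2, 8 rose and 3 fell, beside 21.3% and 23.5%. In both clones these included the F-box gene ago, at log2 0.72 ± 0.07 and 0.51 ± 0.07, and the adaptor SkpA, at -0.51 ± 0.07 and -0.42 ± 0.07, in the authors' deposited table.

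For Msp300 the list was 15 tested genes of the LINC complex, the nuclear lamina and the spectrin family. None passed in Pum RNAi (median log2 -0.12, lowest value -0.50). In Not1 RNAi 7 of 15 rose and 4 fell, where 25.7% and 24.2% of all tested genes did. In Pop2 RNAi 4 rose and 2 fell, beside 18.8% and 20.1%. The other nesprin gene, klar, rose by 1.13 ± 0.18 and 0.72 ± 0.18 (log2) in these knockdowns in the authors' deposited table, while Msp300 fell. In the clones klar was at 0.02 ± 0.08 and -0.25 ± 0.08, and was called lower, like Msp300, in clone 2 only. In the clones 5 rose in each, beside 22.9% and 21.3% of all tested genes, and 3 fell in clone 1 and 4 in clone 2, beside 25.5% and 23.5%. The lamin B receptor gene LBR rose by 1.84 ± 0.10 and 1.72 ± 0.10 and Ote, a LEM-domain protein of the lamina, by 1.01 ± 0.08 and 0.88 ± 0.08, in the authors' deposited table. In the knockdowns LBR and Ote were called lower, as Msp300 was. LBR was at -1.08 ± 0.20 in Not1 RNAi and -0.66 ± 0.19 in Pop2 RNAi, and Ote at -1.19 ± 0.22 and -0.77 ± 0.22. The spectraplakin gene shot was at -0.59 ± 0.08 in clone 2 in the authors' deposited table.

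For Muc14A the list was other mucin and mucin-related genes, of which 7 were tested in the knockdowns and 10 in the clones. None passed in Pum RNAi (median log2 -0.35). In both Not1 RNAi and Pop2 RNAi 2 of 7 fell, where 24.2% and 20.1% of all tested genes did, and none rose. They were Muc68Ca (-1.63 ± 0.48 and -1.74 ± 0.45) and Muc30E (-1.07 ± 0.45 and -1.56 ± 0.45), in the authors' deposited table. In each clone 3 of 10 fell, namely Mur2B, Muc30E and Muc68D, where 25.5% and 23.5% of all tested genes did, and Muc12Ea rose in clone 2. Muc30E fell 1.94-fold in clone 1 (adjusted p = 0.00154, DESeq2) and 2.35-fold in clone 2 (adjusted p = 8.36e-05, DESeq2) in the authors' deposited table. Muc68D had 340 reads in WT, none in clone 1 and 1 in clone 2. At 3 reads over the group, taken as the limit that a count of 0 allows, WT would hold 169 times as much as clone 1. The exact 95% lower bound of the ratio of WT to clone 1, which also carries the counting error of the WT reads, was 137. WT held 404 times as much as clone 2 (exact 95% interval 72.0 to 15994).

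For klu the list was transcription factors of related type or of progenitor circuits, the Notch pathway genes N, Dl, Su(H) and mam, and the cell death gene hid, of which 13 were tested in the knockdowns and 14 in the clones. None passed in Pum RNAi (median log2 -0.13). In Not1 RNAi 6 of 13 rose and none fell, and in Pop2 RNAi 6 rose and 1 fell, where 25.7% and 18.8% of all tested genes rose. The one that fell with klu in Pop2 RNAi was h (hairy), a repressor (log2 -1.71 ± 0.54, in the authors' deposited table), and sr, luna, mam, dpn, hid and Su(H) rose in both. The Krüppel-like gene luna rose by 3.44 ± 0.35 and 1.85 ± 0.35 and mam, the Notch coactivator mastermind, by 2.53 ± 0.22 and 1.53 ± 0.22, in the authors' deposited table. The EGR-type gene sr (stripe) had 3 reads in LacZ RNAi against 1137 in Not1 RNAi and 1506 in Pop2 RNAi, 327 times as much (exact 95% interval 112 to 1588) and 314 times as much (107 to 1524). In the clones luna was at -2.89 ± 0.23 and -2.62 ± 0.23 in the authors' deposited table, so that luna fell with klu there, while mam rose by 0.69 ± 0.08 and 0.93 ± 0.08. Of the 14 genes, 4 fell and 3 rose in clone 1, where 25.5% and 22.9% of all tested genes did. In clone 2, 3 fell and 4 rose, beside 23.5% and 21.3%.

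**Figure D4:**
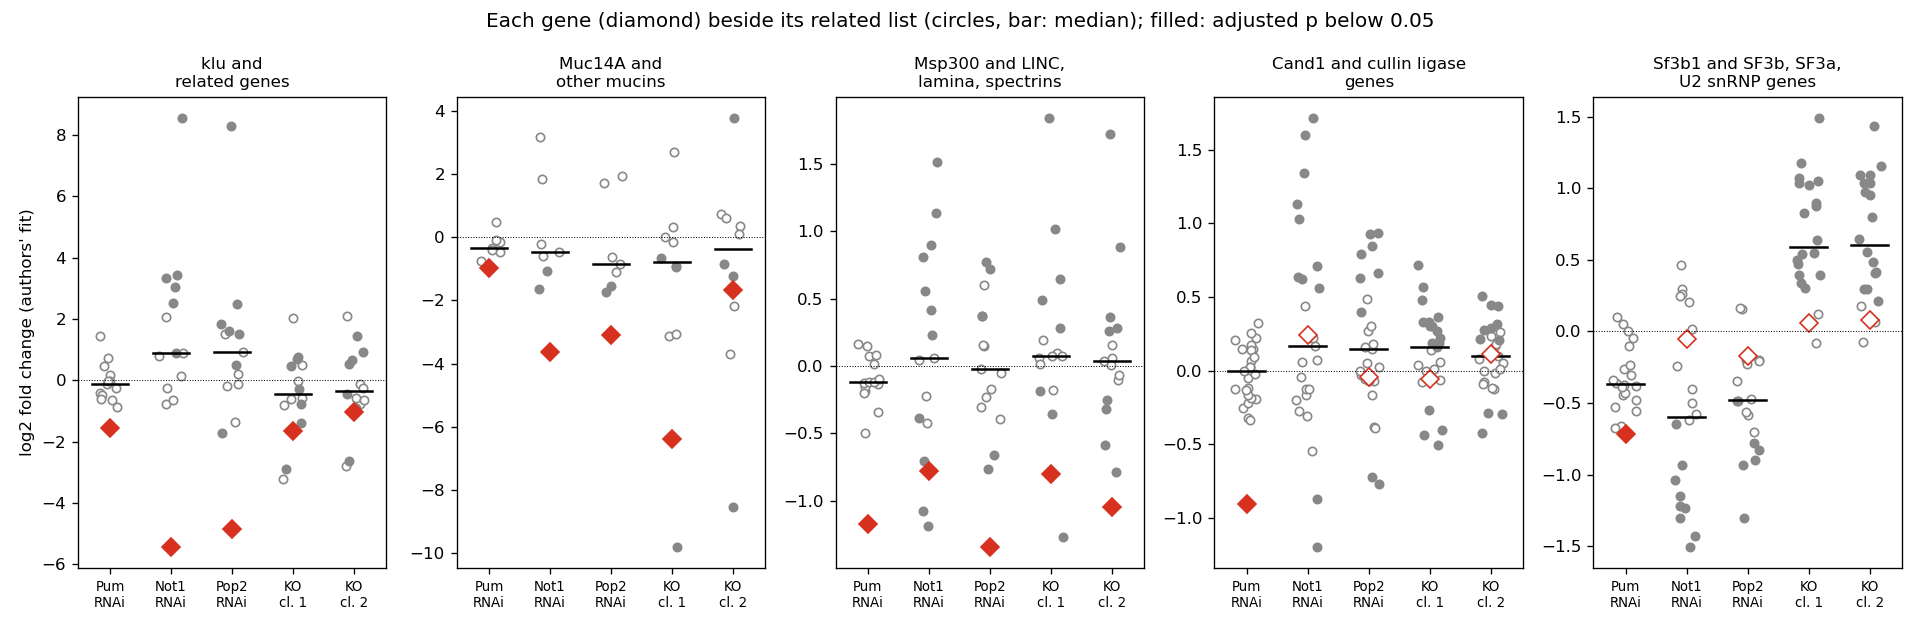
Log2 fold changes (vertical axis, a separate scale per list, the authors' fit) of each of the 5 genes (diamonds, chosen for their Pum RNAi values) and of the genes of its related list (circles; bars are list medians) in the 5 comparisons; filled symbols have an adjusted p below 0.05. No listed gene is filled in Pum RNAi, and the SF3b, SF3a and U2 snRNP genes have medians of -0.60 in Not1 RNAi and 0.59 in clone 1.

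The genes with the most similar values over all 5 comparisons were sought among 5847 genes with a base mean of at least 50 in both tables, by the Euclidean distance of their log2 fold changes. Nearest to Cand1 were Amun (distance 0.27), wdb (0.36) and Pp2B-14D (0.38). Nearest to Sf3b1 were Pp2B-14D (0.20), Pka-C1 (0.21) and 14-3-3epsilon (0.24). For these genes a lower value in Pum RNAi, from -0.89 for Amun to -0.56 for Pka-C1 in the authors' deposited table, stood beside small values elsewhere. Nearest to Msp300 were shep (0.73), CG7069 (0.73) and CD98hc (0.90), each below 0 in all 5 comparisons. The search used these same values, among them the Pum RNAi values that chose the 5 genes. These likenesses therefore follow from the search and are not a result. The nearest genes to klu, CG14864, GNBP2 and CG42694, and to Muc14A, CG8500, Ac3 and Obp44a, lay 2.29 to 2.87 away. By this distance neither gene had a close match among the genes searched, but the distance tends to be larger for genes with large fold changes. However, klu itself did not reach the base mean of 50, and at a base mean of at least 20 RpS19b came nearest to it.

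Markers of other cell types were read beside these results. The germline markers vas, nos, bam and osk summed to 2.09 to 8.28 normalized counts in the knockdown groups and 6.86 to 14.2 in WT and the clones, and osk was listed at 0 in Pum RNAi, Not1 RNAi and both clones. Of 6 muscle markers, Mef2 made up nearly all of the sum, while Mhc, Tm2, up and wupA, genes of the contractile apparatus, stayed at or below 6.17 in every group. The titin-like gene sls, also of muscle, ran from 3.28 to 7.10 in the knockdown groups and was at 11.9 in WT, 9.94 in clone 1 and 35.0 in clone 2. Of 4 neuronal markers, elav stood at 1007 to 1118 in the knockdown groups and 1082 to 1878 in WT and the clones, with nSyb at 3.42 to 21.2 and Syt1 and brp at or below 3.13. The summed hemocyte markers ran from 5822 in Pop2 RNAi to 7488 in Not1 RNAi and from 9570 in clone 2 to 10002 in clone 1. In LacZ RNAi srp alone held 4358 of the 6128, and single markers moved apart in the knockdown table. There eater was at 799 in LacZ RNAi, 965 in Pum RNAi, 137 in Not1 RNAi and 145 in Pop2 RNAi. In the same order Pxn was at 37.3, 45.4, 214 and 230. The summed epithelial markers crb, sdt, shg and cora went the opposite way to klu and Muc14A in the knockdown table, at 5687 (LacZ RNAi) and 6693 (Pum RNAi) against 13150 in Not1 RNAi and 10851 in Pop2 RNAi. In the knockout table the sum went the same way as klu and Muc14A, at 12587 in WT, 10903 in clone 1 and 10597 in clone 2. Single epithelial markers moved apart there, with crb at 496, 26.2 and 62.4 and shg at 409, 468 and 487. Within the hemocyte list 5 of 9 genes, Hml, NimC1, Pxn, He and crq, stood below WT in both clones, Hml at 760.7 in WT, 68.7 in clone 1 and 202.4 in clone 2. The other 4, srp, eater, Col4a1 and vkg, stood above WT in both, srp at 4904, 6898 and 6012. The part of these markers in the results was not tested.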

How the data were processed

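The 5 genes and the related lists were chosen with earlier results of these data known. Per the submitters' processing notes, reads were handled with fastp 0.14.1, HISAT2 2.1.0, UMI-tools 1.0.1, featureCounts (no version named) and DESeq2 1.23.110 on dm6; strand use in counting is not stated. Per the file headers, each deposited signal column holds the mean normalized count of a group, given again per kb of gene length. The authors' fold changes and their SEs are deposited on the log2 scale, and the deposited p-value columns hold raw and adjusted p. Lines without a gene (7) held 0.0448% and 0.0669% of normalized counts and were left out.

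The design foresaw count tests if counts were given, and otherwise the authors' values. No column holds a single sample, so the latter are the main values, with an adjusted p below 0.05 as the call. Reads per library were recovered from the group means as the only whole numbers that, weighted by 3 size factors, give all deposited digits. This was tested on simulated data and found 1 solution for all but 2 of the 10107 to 11032 genes searched per group (means up to 9999), covering 63.1% to 77.6% of normalized counts. From these reads a negative binomial fit gave the deposited log2 fold changes of 7 genes (35 values) within 5.76e-06. Depth limits precision most for klu. Intervals from reads are exact and cover counting error only.

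Alternatives used limma 3.58.1 (R 4.3.3) on log2(normalized count + 1) of genes with a mean of at least 5. Differences between 2 comparisons used the authors' values and SEs with a normal test and Benjamini-Hochberg adjustment over all genes. Python 3.11.15 with numpy 2.4.6, scipy 1.17.1 and matplotlib 3.10.9 did the rest. Named were the 5 genes, the 3 targets, the 3 nearest profiles per gene and the genes at the threshold. List genes were drawn from up to 3 called genes per list and comparison with the smallest adjusted p. Some of them were also given in further comparisons, as slmb was in Pop2 RNAi. Named beyond these were h, dpn, hid and Su(H) of the klu list and Muc12Ea, so not every called gene is named. The markers and the list's lowest values stand beside them. The annotation used has the coordinates of the deposited tables for the 5 genes. No sequences were used.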

Additional observations from a re-analysis of the deposited data

Results flagged for a closer look

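Muc14A differed between the pum knockout clones: its log2 fold change against WT was 4.71 lower in clone 1 than in clone 2 (-4.71 ± 0.20), a gap past the test of the difference over all genes (adjusted p = 5.14e-114). All 3 clone 1 libraries (19.8 to 32.7 normalized counts) lay below all 3 clone 2 libraries (653 to 718). The mRNA of pum itself differed the same way, by -1.04 ± 0.10 (adjusted p = 5.55e-23 by the same test), with 969 to 1074 normalized counts in clone 1 and 2087 to 2186 in clone 2. Each clone is 1 isolate, so a difference that comes with the loss of pum and one that comes with the isolate cannot be told apart.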

How the results depend on the processing

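The falls of klu, Muc14A and Msp300 in both clones kept their direction and call under every limma setting run and without any 1 library. Of the 13 calls outside Pum RNAi, 227 of 242 re-computed values kept direction and call and none reversed; 10 of the other 15, all of Msp300 in Not1 RNAi, missed the threshold, and 5 fitted log2 values of klu and Muc14A moved when the ratio of group means took a pseudocount. In Pum RNAi the call moved most: of the 5 genes, 2 were lower at adjusted p 0.01, and by limma with all libraries, a pseudocount of 10, scaling by total recovered reads or no filter 0 were (0 to 1 when 1 library was left out), with log2 values between -1.50 and -0.70 in the fit of all libraries; there 609 of 7522 genes had an unadjusted p under 0.05 and 1 was called lower in all. All 5 passed with library C of LacZ RNAi and of Not1 RNAi left out together, or with library quality weights, a setting chosen after seeing the data, as were the limma tests between Not1 RNAi and Pop2 RNAi and between the clones.

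Without 1 library, the count of the 5 called lower ran from 2 to 3 in Not1 RNAi and stayed at 3 in Pop2 RNAi and in each clone. Between Not1 RNAi and Pop2 RNAi 1 of the 5 (Muc14A) passed with quality weights and without both of these libraries. Between the clones 2 passed by limma with all libraries, with a pseudocount of 10 and without a filter, 3 with total scaling, 4 with quality weights and 1 to 4 without 1 library. Reversed signs were small. Sf3b1 in Not1 RNAi ran from -0.159 to 0.123 without 1 library and was at 0.000974 without both C libraries; in Pop2 RNAi it was at 0.0294 with quality weights. Cand1 in Pop2 RNAi was at 0.0343 with total scaling and 0.0633 with quality weights, ran from -0.107 to 0.0101 without 1 library and was at 0.0101 without both C libraries. Between Not1 RNAi and Pop2 RNAi klu ran from -0.643 to 0.295 without 1 library, above 0 without Not1 RNAi library A or B or Pop2 RNAi library C, and Sf3b1 was at -0.0784 with total scaling and -0.0769 with quality weights. Between the clones Sf3b1 was at 0.0213 with quality weights and ran from -0.0702 to 0.0292 without 1 library. The cause was not tested. Total scaling moved the median log2 over all genes in Pum RNAi from 0.02 to 0.14 and from -0.00 to -0.13 in Not1 RNAi. Of the 15 nearest profiles, 2 were kept by Pearson correlation and 11 at a base mean of at least 20. No paired analysis was possible because the columns carry no replicate numbers. TMM and DESeq2 on recovered reads were not run. Depth limits klu in Not1 RNAi (7 reads) and Pop2 RNAi (15 reads).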

Other observations

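The other 13 genes that the authors call lower in Pum RNAi, pum left out, were followed in the same way. In clone 1 9 of them fell and 2 rose, and in clone 2 9 fell and 1 rose. Of all tested genes 25.5% and 23.5% were called lower there, and 22.9% and 21.3% higher. Their medians were -0.74 and -0.36 (log2). Among them Men, the malic enzyme gene, fell by 1.84 in clone 1 and 0.86 in clone 2, PyK, pyruvate kinase, fell by 1.00 and 0.55, and Pcyt1, of phosphatidylcholine synthesis, fell by 1.32 and 1.33 (log2, the authors' deposited table). These genes were chosen after their values were seen. LeuRS and Sec3 passed in neither clone, as Cand1 and Sf3b1 did not. In Not1 RNAi and Pop2 RNAi, 9 and 10 of the 13 fell and 2 rose in each. Of all tested genes 24.2% and 20.1% were called lower there, and 25.7% and 18.8% higher. These knockdowns share with Pum RNAi the LacZ RNAi samples that the 13 were called lower against, so the counts of falls are not a result.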
